A study of Mus musculus with 4 samples.

Results

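The genes of sterol synthesis and of its control by SREBP2 were examined in the open-chromatin (ATAC-seq) peaks of a mouse macrophage line, RAW264.7. The set held 26 genes of the 21273 protein-coding genes that could be placed with a strand on the mouse build mm10. The set was chosen by function, with earlier results of these data known. It comprised 6 genes of the mevalonate steps, 2 that make the longer prenyl diphosphates, 11 of the squalene and sterol steps, 6 for SREBP2 and its processing, and Stard4, a sterol transport protein. For each gene and library, the strongest peak with a summit within 1 kb of the gene start (the 5′ end of the gene, called promoter peak below) was taken, and all peaks from 10 kb before the gene to its 3′ end were counted.

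ATAC-seq marks open chromatin with a transposase that inserts sequencing adapters into accessible DNA. The cells carried no engineered genotype (WT), and every group received 25 ug/mL DIL-oxLDL, oxidized low-density lipoprotein bearing a fluorescent dye, for 24 h. The control group (n = 2) was given DMSO, the solvent, and the esculetin group (n = 2) was given 40 ug/mL esculetin, a plant coumarin. No library without oxLDL was part of the comparison, so the effect of oxLDL itself was not measured. Nothing in the labels said whether the libraries of a group came from separate cultures, so the spread between them may be technical.

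Cholesterol is built from acetyl-CoA through mevalonate, farnesyl diphosphate and squalene to lanosterol, which is then trimmed to cholesterol. The transcription factor SREBP2, the product of Srebf2, switches these genes on when cell sterol is low. SREBP2 is held in the endoplasmic reticulum by Scap together with the Insig proteins, and after transport to the Golgi it is released by the proteases encoded by Mbtps1 and Mbtps2. Macrophages that take up lipoproteins receive cholesterol from outside, and in such cells the SREBP2 pathway is known to be turned down.

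The peak lists differed in length between the groups, with 19475 and 27731 peaks on the main chromosomes in the controls (replicates 1 and 2, the order used throughout) and 8581 and 12680 under esculetin. Depth, solved from the lists as the genome-wide background coverage, was 6.51 and 4.08 for the controls and 4.97 and 4.10 under esculetin. The lists hold no read counts. Of 10 macrophage marker genes, 5 and 7 had a promoter peak in the controls and 1 and 4 under esculetin, where the share of all coding genes was 37.4% and 38.9% and 27.9% and 35.0%. Spi1, which encodes the macrophage transcription factor PU.1, had one in all 4 libraries, whereas Csf1r, Adgre1 and Itgam had none in any library at the gene start used. No promoter peak was found in any library at 10 kidney epithelium or 5 T cell markers, and 1 of 6 fibroblast markers, Col3a1, had one in control replicate 2.

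Most sterol synthesis genes had an open promoter in every library. A promoter peak was found at 21 of the 26 genes in each control library and at 20 in each esculetin library, or 80.8% and 76.9%. The corresponding shares of all coding genes were 37.4% and 38.9% in the controls and 27.9% and 35.0% under esculetin. The same 20 genes had one in all 4 libraries, 76.9% of the set against 24.9% of coding genes. Among the 500 coding genes nearest in length to each member, the share open in all 4 libraries was 29.3% on average, and it ranged from 21.4% to 34.4% between members. A promoter peak in both control libraries and neither esculetin library was found at 3.36% of coding genes, and the reverse pattern at 0.414%. None of the 26 genes had either pattern.

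The promoter peaks also ranked high within their lists. The percentile of a peak is the share of peaks of its own list with a lower −log10 p, so that 100.0 would be the top of the list. Over these 20 genes, the median percentile was 93.3 and 84.6 in the controls and 77.1 and 86.5 under esculetin. Over all coding genes with a promoter peak in all 4 libraries it was 80.2, 75.2, 63.9 and 76.1. The median of the members was thus above the coding median in each library, while single members such as Nsdhl were below it. Their peaks were 598, 594, 503 and 559 bp wide at the median, against 514, 523, 464 and 519 bp over coding genes.

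**Figure D1:**
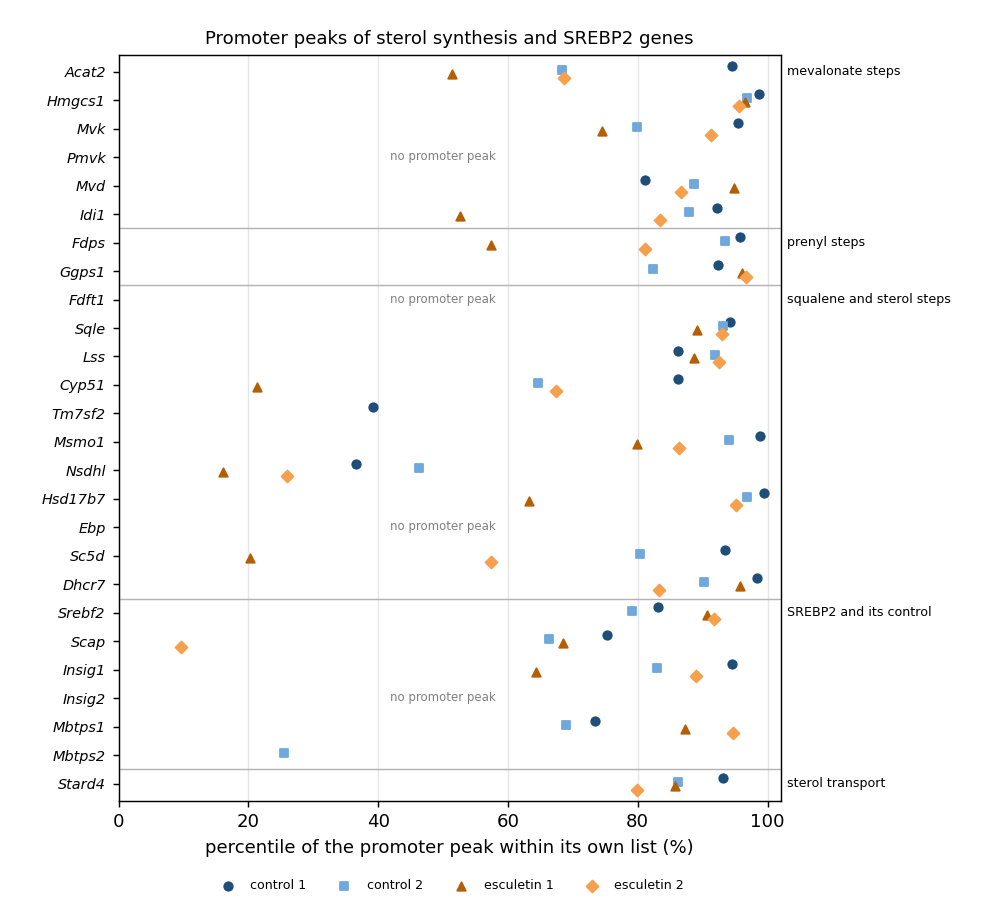
Within-list percentile of the promoter peak (x axis, %, 100 is the strongest peak of the list) of each of the 26 genes (rows, grouped by step of the pathway) in the 4 libraries (1 point per library, n = 2 per group). Most points lie above 60, and Sc5d, Cyp51 and Scap spread widely. Ggps1, Mbtps1 and Srebf2 have both esculetin points to the right of both control points, and 4 genes have no point.

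The differences between the groups ran in both directions. Of the 20 genes with a promoter peak in all libraries, 9 had both esculetin percentiles below both control percentiles (Fdps, Hmgcs1, Hsd17b7, Idi1, Msmo1, Nsdhl, Sc5d, Sqle and Stard4), against 29.6% of the 5289 coding promoters with a peak in all 4 libraries. In 3 genes (Ggps1, Mbtps1 and Srebf2) both esculetin percentiles were higher, against 14.7% of coding promoters. The median difference between group means was −9.48 percentile points over the 20 genes and −4.33 over coding promoters. A two-sided exact permutation test of 2 libraries against 2 has 6 arrangements and cannot give a p below 0.33, so no gene could reach 0.05.

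The 9 and 3 changed when control replicate 2 was left out and when the lists were cut to equal length. Without control replicate 2 the groups did not overlap in any of the 20 genes, with 15 lower and 5 higher in esculetin (51.0% and 22.1% of coding promoters), and with 1 library left in a group a lack of overlap is easier to obtain. With the 8581 strongest peaks of each list, 15 genes had a promoter peak in all libraries (14.1% of coding genes), of which 2 were lower and 5 higher in esculetin, against 6.74% and 37.3% of coding promoters. Esculetin replicate 1, the shortest list, held the lowest percentile in 11 of the 20 genes, as it did for 47.0% of coding promoters. Control replicate 1, the deepest library, held the highest in 14 of 20, as it did for 42.0% of coding promoters. The part of list length and depth in these percentiles was not tested.

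Summit coverage gave a measure that does not use the length of the list. The coverage at each summit was solved from the fold and p of the peak. It was divided by the median over coding promoters open in all 4 libraries. This median was 46 and 40 for the controls and 36 and 40 under esculetin. On this scale (scaled coverage, log2), 8 of the 20 genes were lower in esculetin without overlap (Acat2, Cyp51, Fdps, Hsd17b7, Insig1, Msmo1, Nsdhl and Sc5d), against 23.1% of coding promoters. Another 4 were higher (Ggps1, Mbtps1, Mvd and Srebf2), against 29.6%. The mean was lower in esculetin in 14 of the 20 genes and in 46.1% of coding promoters, with a median difference of −0.21 for the genes and 0.04 for coding promoters. The difference was larger than 2 times its counting error in 3 genes that were lower (Fdps, Hsd17b7 and Sc5d) and 4 that were higher (Ggps1, Mbtps1, Mvd and Srebf2), against 9.38% and 14.0% of coding promoters.

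Ranking peaks by fold in place of −log10 p gave 6 genes lower (Fdps, Idi1, Msmo1, Nsdhl, Sc5d and Scap) and 4 higher (Ggps1, Mbtps1, Sqle and Srebf2), against 25.0% and 15.6% of coding promoters. By rank from the top of the list, which favours the shorter esculetin lists, 2 were lower (Fdps and Msmo1) and 7 higher (Ggps1, Lss, Mbtps1, Mvd, Nsdhl, Sqle and Srebf2), against 4.10% and 49.5%. Sqle was lower by percentile and higher by fold and by rank. Nsdhl was higher only by rank from the top and lower on the other scales. Only Fdps and Msmo1 were lower on all 4 scales, against 3.86% of coding promoters, and Ggps1, Mbtps1 and Srebf2 were higher on all 4, against 11.0%.

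Counts were also taken by role. Among the 19 enzymes of the pathway, 15 had a promoter peak in all libraries, of which 8 had lower percentiles in esculetin and 1 had higher (29.6% and 14.7% of coding promoters). Among the 6 genes for SREBP2 and its processing, 4 had a promoter peak in all libraries, of which none was lower and 2 were higher. For scaled coverage the counts were 7 lower and 2 higher among the enzymes and 1 lower and 2 higher among the control genes (23.1% and 29.6% of coding promoters). The difference between the roles was not tested.

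**Figure D2:**
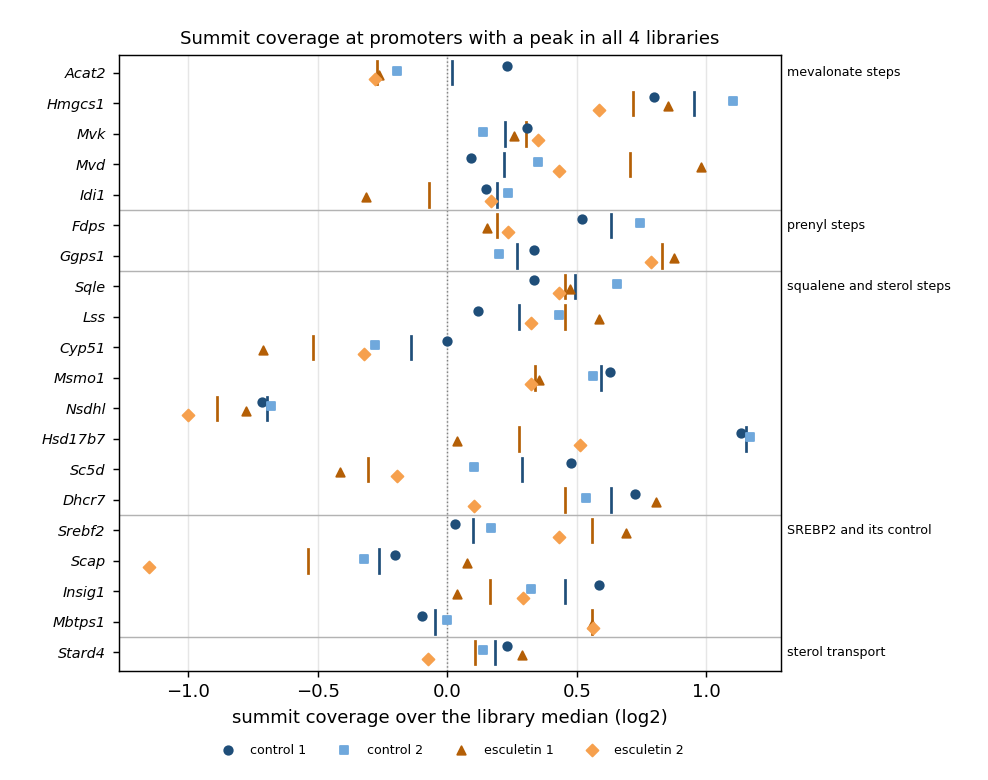
Summit coverage over the library median (x axis, log2) at the 20 promoters with a peak in all 4 libraries (rows), with 1 point per library and a coloured bar at each group mean (dark blue, control; brown, esculetin; n = 2 each). The esculetin bar lies to the left of the control bar in 14 genes, farthest for Hsd17b7, and to the right in Mbtps1, Ggps1, Mvd and Srebf2 with no overlap of points.

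Promoter sequences of 6 genes are given to show what lay under these peaks. Hmgcs1 is shown because its promoter was among the strongest in every library, Msmo1 and Hsd17b7 because coverage was lower in esculetin, and Srebf2, Ggps1 and Mbtps1 because it was higher. Each is the 250 bases before a start listed in RefSeq (GRCm38.p6, whose chromosomes are those of mm10), 5′ to 3′ on the strand of the gene. For Hsd17b7, Ggps1 and Mbtps1 the listed start lies slightly inside the 5′ end of the gene. Capitals mark CACNCCAC, a sterol response element type, CCAAT, the box bound by NFY, GGGCGG, the box bound by Sp1, and CACGTG, an E box, on either strand. The regions were chr13:119690101-119690350 (+) for Hmgcs1, chr8:64733579-64733828 (−) for Msmo1, chr1:169969206-169969455 (−) for Hsd17b7, chr15:82147019-82147268 (+) for Srebf2, chr13:14063489-14063738 (−) for Ggps1 and chr8:119558762-119559011 (−) for Mbtps1.
Hmgcs1: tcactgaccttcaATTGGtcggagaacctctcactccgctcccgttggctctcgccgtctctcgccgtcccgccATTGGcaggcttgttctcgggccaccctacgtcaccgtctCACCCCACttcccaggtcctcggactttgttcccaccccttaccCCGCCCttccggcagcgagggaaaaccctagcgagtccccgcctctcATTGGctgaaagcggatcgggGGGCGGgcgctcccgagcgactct
Msmo1: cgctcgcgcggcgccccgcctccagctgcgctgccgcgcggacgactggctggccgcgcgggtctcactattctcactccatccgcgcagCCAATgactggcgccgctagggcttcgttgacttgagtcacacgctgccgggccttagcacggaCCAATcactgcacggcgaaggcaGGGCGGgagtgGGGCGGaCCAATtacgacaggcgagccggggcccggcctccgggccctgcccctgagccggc
Hsd17b7: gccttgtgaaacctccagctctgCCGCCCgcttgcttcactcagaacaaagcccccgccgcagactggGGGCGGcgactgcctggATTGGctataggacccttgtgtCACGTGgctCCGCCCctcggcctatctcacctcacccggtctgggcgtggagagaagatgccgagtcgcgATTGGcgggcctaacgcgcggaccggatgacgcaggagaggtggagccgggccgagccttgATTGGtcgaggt
Srebf2: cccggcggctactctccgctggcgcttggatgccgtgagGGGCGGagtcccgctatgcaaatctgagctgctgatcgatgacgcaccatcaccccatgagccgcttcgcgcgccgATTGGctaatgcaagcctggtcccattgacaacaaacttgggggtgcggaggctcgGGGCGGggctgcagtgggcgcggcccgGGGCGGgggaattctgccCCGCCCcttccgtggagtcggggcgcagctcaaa
Ggps1: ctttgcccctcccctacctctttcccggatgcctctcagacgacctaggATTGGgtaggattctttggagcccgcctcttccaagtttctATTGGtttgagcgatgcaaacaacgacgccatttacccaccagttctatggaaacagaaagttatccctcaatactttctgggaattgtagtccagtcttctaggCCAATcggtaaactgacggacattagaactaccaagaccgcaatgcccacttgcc
Mbtps1: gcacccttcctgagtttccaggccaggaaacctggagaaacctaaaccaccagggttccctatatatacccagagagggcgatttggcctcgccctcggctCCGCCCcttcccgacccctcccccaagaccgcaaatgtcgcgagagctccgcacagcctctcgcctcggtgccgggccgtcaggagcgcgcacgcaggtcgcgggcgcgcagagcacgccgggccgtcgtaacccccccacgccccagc

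Hmgcs1 carried CACCCCAC 136 bases before the start with CCAAT boxes on the reverse strand on both sides of it, and Msmo1 carried 3 CCAAT boxes at 160, 96 and 55 bases. Of the 22 members in the RefSeq promoter table (Fdps, Fdft1, Sqle and Stard4 were not matched), 17 held CCAAT in this window, or 77.3%, against 36.3% of 17492 coding promoters and 43.5% of the 4451 among them with a peak in all libraries. GGGCGG was found in 17, or 77.3%, against 42.7% and 70.1%. CACNCCAC was found in 3 (Acat2, Hmgcs1 and Insig1), or 13.6%, against 5.12% and 4.88%. CACGTG was found in 3 (Hsd17b7, Insig1 and Sc5d), or 13.6%, against 6.64% and 9.91%. The median GC content of the windows was 62.2% for members and 55.2% for coding promoters. These letter matches are descriptions of the windows and say nothing of which factor was bound.

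Summits lay close to the gene start and mostly before it. The median position over the 20 genes was 88.5 and 108 bp before the start in the controls and 56 and 68 bp before it under esculetin. Over coding genes it was 32, 29, 23 and 30 bp before the start. The summit was on the upstream side in 15, 18, 16 and 14 of the 20 genes, against 64.5%, 62.9%, 59.9% and 63.3% of coding promoters.

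Among the mevalonate steps, Hmgcs1, which encodes HMG-CoA synthase, had one of the strongest promoters of the set (chromosome 13, 119690351 to 119708260). Its percentiles were 98.7 and 96.9 in control and 96.6 and 95.6 in esculetin. The groups did not overlap, with means of 97.8 ± 1.32 and 96.1 ± 0.672 (SD, n = 2) and a difference of −1.68, and the sign turned when peaks were ranked by fold (0.15). Without control replicate 1 the difference was −0.75, and without control replicate 2 it was −2.61. Its summit coverage was 80 and 86 in control and 65 and 60 in esculetin, with scaled values of 0.80, 1.10, 0.85 and 0.58 that overlapped. The summit lay 220, 217, 242 and 164 bp before the start, in the order of the percentiles.

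Acat2 encodes the thiolase that makes acetoacetyl-CoA, the substrate of HMG-CoA synthase. Its percentiles were 94.5 and 68.3 in control and 51.4 and 68.7 in esculetin, so that control replicate 1 stood above the other 3 libraries and the groups overlapped. The scaled coverage was 0.23 and −0.19 in control and −0.26 and −0.28 in esculetin, without overlap but with a difference of −0.29 near its counting error of 0.24. The kinase gene Mvk had percentiles of 95.5 and 79.9 in control and 74.4 and 91.3 in esculetin, which overlapped, as did its scaled coverage of 0.31, 0.14, 0.26 and 0.35. Its start lies 191 bp from that of Mmab, transcribed the other way, and a peak there cannot be assigned to one of the pair.

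Mvd, the decarboxylase that makes isopentenyl diphosphate, had percentiles of 81.2 and 88.7 in control and 94.8 and 86.7 in esculetin. These overlapped, whereas its coverage of 49 and 51 in control and 71 and 54 in esculetin gave scaled values of 0.09, 0.35, 0.98 and 0.43 that did not. The difference was 0.49 with a counting error of 0.19, and esculetin replicate 1 lay well above the other 3 libraries. Idi1, the isomerase that follows, went the other way, with 92.1 and 88.0 in control and 52.6 and 83.4 in esculetin. The Idi1 difference of −22.0 came largely from esculetin replicate 1, since without it the difference was −6.62 (−37.4 without esculetin replicate 2), and the scaled coverage of 0.15, 0.23, −0.31 and 0.17 overlapped.

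Farnesyl diphosphate synthase, encoded by Fdps (chromosome 3, 89093588 to 89101967), makes the branch point from which sterols, dolichol, ubiquinone and prenylated proteins are derived. Its promoter peak stood at the 95.7 and 93.4 percentile in control and at 57.5 and 81.2 in esculetin. Summit coverage was 66 and 67 in control and 40 and 47 in esculetin, or scaled values of 0.52, 0.74, 0.15 and 0.23. Both esculetin libraries were below both controls, by 0.44 on the log2 scale, a 1.36-fold lower scaled coverage, with a counting error of 0.20. The percentile difference was −25.2, and −13.4 without esculetin replicate 1.

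Ggps1, which encodes geranylgeranyl diphosphate synthase and thus draws farnesyl diphosphate away from sterols, was higher in esculetin (chromosome 13, 14049790 to 14063566). Its percentiles were 92.4 and 82.4 in control and 96.1 and 96.7 in esculetin, and its coverage was 58 and 46 in control and 66 and 69 in esculetin. Scaled coverage was 0.33 and 0.20 in control and 0.87 and 0.79 in esculetin, a 1.48-fold difference with a counting error of 0.19 on the log2 scale. The start of Arid4b, transcribed the other way, is 43 bp from that of Ggps1, so the peak cannot be assigned to one of them. The percentile difference of 8.97 was 3.96 without control replicate 2, 14.0 without control replicate 1 and 32.6 with lists of equal length.

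In the sterol steps proper, 8 of 11 genes had a promoter peak in all libraries, and 5 of these were lower in esculetin by percentile and 5 by scaled coverage, with none higher by either. Of coding promoters, 29.6% were lower and 14.7% higher by percentile, and 23.1% were lower and 29.6% higher by scaled coverage. Sqle, the squalene epoxidase and a known control point of the pathway, had percentiles of 94.2 and 93.1 in control and 89.1 and 92.9 in esculetin, a difference of −2.66 that lay between −4.60 and −0.72 when either esculetin library was left out. Its scaled coverage of 0.33, 0.66, 0.47 and 0.43 overlapped between the groups. Lss, lanosterol synthase, had percentiles of 86.2 and 91.9 in control and 88.6 and 92.6 in esculetin and a coverage between 50 and 54 in every library. Neither gene differed beyond its spread on the coverage scale.

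Hsd17b7, a sterol ketoreductase of the C4 demethylation steps, showed the widest gap in coverage of the set (chromosome 1, 169949535 to 169969242). Summit coverage was 101 (95% Poisson interval 82.3 to 122.7) and 90 (72.4 to 110.6) in control and 37 (26.1 to 51.0) and 57 (43.2 to 73.9) in esculetin, where the intervals cover counting error only. The scaled values were 1.13 and 1.17 in control and 0.04 and 0.51 in esculetin, a 1.84-fold lower coverage in esculetin with a counting error of 0.18 on the log2 scale. The SDs were 0.02 and 0.33, both smaller than the difference of 0.88. By percentile, 99.4 and 96.8 in control stood against 63.2 and 95.1 in esculetin, so that esculetin replicate 2 was near the controls on that scale, and the difference of −18.9 shrank to −2.99 without esculetin replicate 1 and was −34.9 without esculetin replicate 2.

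Msmo1, the methylsterol monooxygenase that opens the same demethylation, was lower in esculetin on every scale (chromosome 8, 64718123 to 64733578). Its percentiles were 98.8 and 94.0 in control and 79.8 and 86.3 in esculetin, and its ranks from the top were 240 and 1650 in control and 1733 and 1738 in esculetin. Scaled coverage was 0.63 and 0.56 in control and 0.35 and 0.32 in esculetin, a difference of −0.26 with a counting error of 0.19. A further peak lay 6956 to 7306 bp inside the gene in 3 libraries, at percentiles of 83.2 and 75.8 in control and 25.9 in esculetin replicate 2, and esculetin replicate 1 had none.

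Sc5d, the sterol desaturase near the end of the pathway, had the largest change in percentile of the 20 genes (chromosome 9, 42251592 to 42264300). Its percentiles were 93.4 and 80.3 in control and 20.3 and 57.4 in esculetin, a difference of −48.0 and of −29.5 without esculetin replicate 1. Coverage was 64 and 43 in control and 27 and 35 in esculetin. On the scaled log2 scale the values were 0.48, 0.10, −0.42 and −0.19, which is 1.51-fold lower in esculetin with a counting error of 0.23.

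Cyp51, the lanosterol demethylase, had percentiles of 86.2 and 64.7 in control and 21.4 and 67.3 in esculetin, which overlapped. Its scaled coverage of 0.00, −0.28, −0.71 and −0.32 did not overlap, though control replicate 2 and esculetin replicate 2 were close to each other. Nsdhl, the sterol dehydrogenase that acts between Msmo1 and Hsd17b7, had a weak promoter peak throughout, with percentiles of 36.7 and 46.3 in control and 16.1 and 25.9 in esculetin. Its coverage of 28, 25, 21 and 20 was the lowest of the 20 genes in every library except esculetin replicate 2, where Scap had 18. The scaled values of −0.72, −0.68, −0.78 and −1.0 did not overlap, and their difference of −0.19 was smaller than the counting error of 0.30. Nsdhl shares its promoter region with Cetn2, whose start is 177 bp away in the other direction. Nsdhl lies on chromosome X, as do Ebp and Mbtps2, described below.

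Dhcr7, the reductase that makes cholesterol in the last step, had percentiles of 98.3 and 90.1 in control and 95.8 and 83.2 in esculetin. The groups overlapped here and in scaled coverage (0.72, 0.54, 0.81 and 0.10). Its start is 305 bp from that of Nadsyn1, transcribed the other way. A further peak lay 6869 to 6970 bp inside the gene in all 4 libraries, within 77 to 178 bp of another start that RefSeq lists for Dhcr7, at percentiles of 86.5 and 54.0 in control and 51.5 and 80.9 in esculetin.

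Srebf2, which encodes SREBP2 itself, had a stronger promoter peak in both esculetin libraries (chromosome 15, 82147269 to 82205379). Its percentiles were 83.2 and 79.0 in control and 90.7 and 91.8 in esculetin, with means of 81.1 ± 2.92 and 91.3 ± 0.812 (SD, n = 2). Coverage was 47 and 45 in control and 58 and 54 in esculetin, or scaled values of 0.03, 0.17, 0.69 and 0.43. The scaled coverage was thus 1.38-fold higher in esculetin, with a counting error of 0.20 on the log2 scale, and the percentile difference of 10.1 ranged from 8.08 to 12.2 when 1 library was left out and was 42.3 with lists of equal length.

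Mbtps1, the protease that makes the initial cut in SREBP2, was also higher in esculetin (chromosome 8, 119508151 to 119558864). Percentiles were 73.4 and 68.9 in control and 87.3 and 94.7 in esculetin. Scaled coverage was −0.10 and 0.00 in control and 0.56 and 0.56 in esculetin, 1.52-fold higher with a counting error of 0.21 on the log2 scale. The esculetin libraries had nearly the same value on this scale, and both lay above both controls.

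Scap, the escort of SREBP2, had percentiles of 75.3 and 66.3 in control and 68.4 and 9.65 in esculetin, so the difference of −31.8 rested on esculetin replicate 2 and was −2.35 without it, and the scaled coverage of −0.20, −0.32, 0.08 and −1.15 also set that library apart. Insig1, a retention protein and itself a target of SREBP2, had percentiles of 94.5 and 82.9 in control and 64.3 and 89.0 in esculetin, which overlapped, while its scaled coverage of 0.58, 0.32, 0.04 and 0.29 did not. Without esculetin replicate 1 the Insig1 percentile difference was 0.24, and without esculetin replicate 2 it was −24.5, against −12.1 with all libraries. The Insig1 promoter summits lay inside the long noncoding RNA gene Gm35223. Stard4, which carries sterol between membranes, had percentiles of 93.1 and 86.2 in control and 85.8 and 79.9 in esculetin, which did not overlap, while its scaled coverage of 0.23, 0.14, 0.29 and −0.07 overlapped. The Stard4 percentile difference of −6.85 was −3.40 and −10.3 without control replicates 1 and 2 and −3.89 without esculetin replicate 2.

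Of the 6 genes without a promoter peak in all libraries, 2 had one in a single control library. Tm7sf2, a sterol reductase, had a peak 685 bp inside the gene in control replicate 1, at the 39.2 percentile with a coverage of 30. Mbtps2, the protease that completes the release of SREBP2, had one 200 bp before the start in control replicate 2, at the 25.5 percentile with a coverage of 21. The weakest peak of any kind had a coverage of 17 and 13 in the controls and 15 and 13 under esculetin.

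The remaining 4 genes, Pmvk, Fdft1, Ebp and Insig2, had no promoter peak in any library. For 3 of them a peak lay farther inside. Insig2 had a strong peak 4738 to 4832 bp inside the gene in all libraries, at percentiles of 93.8 and 90.9 in control and 89.9 and 85.5 in esculetin. This peak was 100 to 152 bp from other starts that RefSeq lists for Insig2, at 4638 and 4984 bp from the gene start. Fdft1, squalene synthase, had a peak 3578 to 3696 bp inside in all libraries, with percentiles of 81.1 and 81.0 in control and 85.7 and 95.1 in esculetin, and it was not matched in the RefSeq promoter table, so other starts were not looked up. Pmvk, the phosphomevalonate kinase, had a weak peak 4554 to 4576 bp inside in 3 libraries, at percentiles of 34.3 in control replicate 1 and 30.2 and 33.6 in esculetin, 454 to 476 bp before another listed start. Ebp, the sterol isomerase, had no peak anywhere from 10 kb before the gene to its 3′ end in any library.

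Counting every peak from 10 kb before each gene to its 3′ end gave 29 and 42 peaks over the 26 genes in control and 25 and 29 in esculetin. The means were 35.5 ± 9.19 and 27.0 ± 2.83 (SD, n = 2), a difference of −8.5 that was smaller than the control SD and overlapped at 29. Without control replicate 2 the difference was −2.0, and without control replicate 1 it was −15.0. The 500 coding genes of similar length to each member would give 22.1 and 32.2 peaks in control and 12.3 and 16.8 in esculetin. The members thus held 1.31 and 1.30 times as many peaks in control and 2.03 and 1.73 times as many in esculetin. Per 1000 peaks of the list, the members held 1.49 and 1.51 in control and 2.91 and 2.29 in esculetin. Genes of similar length held 1.14 and 1.16 in control and 1.44 and 1.33 in esculetin on this scale, so the direction turned for them as well as for the members.

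**Figure D3:**
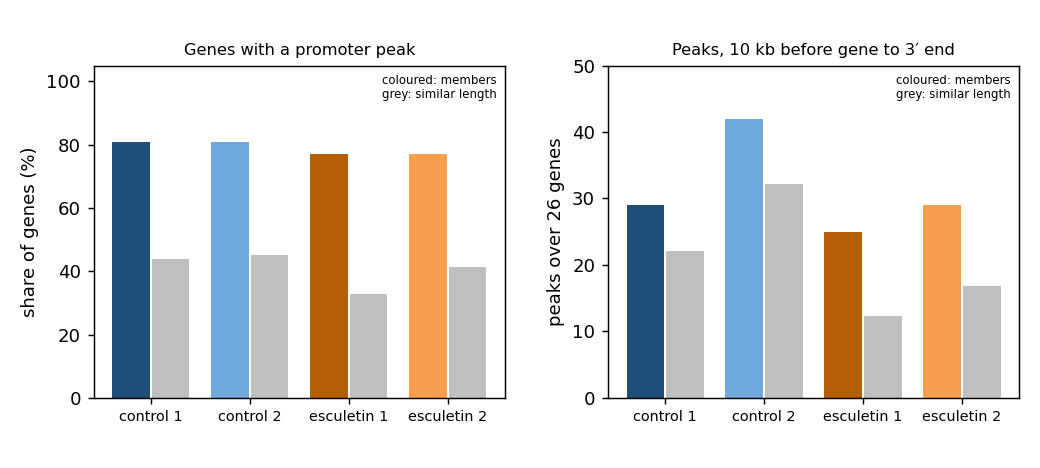
Left, share of genes with a promoter peak (%) and right, number of peaks from 10 kb before each gene to its 3′ end summed over 26 genes, for the members (coloured bars) and for coding genes of similar length (grey bars, mean of 500 per member), in each library. The members lie above the grey bar in all 4 libraries in both panels, and control replicate 2 has the most peaks (42).

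Peaks inside the genes beyond 1 kb of the start numbered 6 and 16 in control and 4 and 7 in esculetin, against 5.93, 13.5, 1.78 and 3.18 for genes of similar length. The 4 of esculetin replicate 1 were those of Pmvk, Fdft1, Insig2 and Dhcr7 described above, of which the Insig2 and Dhcr7 peaks lay within 178 bp of another listed start and the Pmvk peak 454 bp from one. The difference between the groups was not tested. Control replicate 2 alone held 15 peaks outside promoters with no peak of another library within 1 kb, 11 of them inside genes, while control replicate 1 held 1, esculetin replicate 1 none and esculetin replicate 2 held 2. The list of control replicate 2 was the longest, and no such count is given for genes of similar length. Those of control replicate 2 included strong peaks 9527 bp inside Hmgcs1 (percentile 95.7) and 9353 bp inside Ggps1 (90.0), and one 6959 bp before Acat2 that lies inside Wtap (93.1). The others were weaker and included 2 inside Srebf2, at 34813 and 56564 bp (15.0 and 36.4), 2 inside Scap and 2 inside Mbtps1. The final 10% of the gene length held 2 peaks in control replicate 2, in Dhcr7 and Srebf2, and none in the other libraries, against 2.47 there and 0.636, 0.160 and 0.210 in control replicate 1 and the esculetin libraries for genes of similar length.

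**Figure D4:**
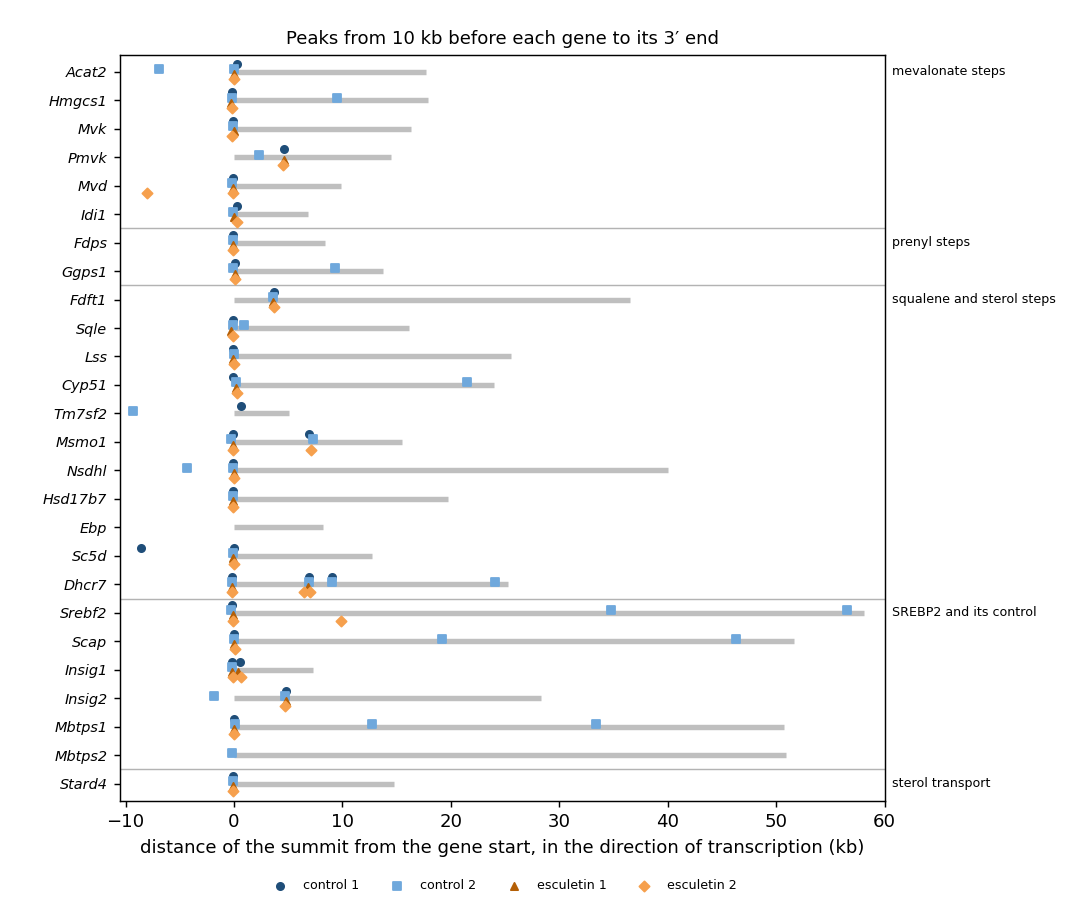
Position of every peak summit (points, 1 marker per library) from 10 kb before the start of each gene to its 3′ end, in kb along the direction of transcription, with the gene drawn as a grey bar to scale. Points of all 4 libraries cluster at the start of 20 genes and about 4.8 kb inside Insig2 and 3.6 kb inside Fdft1, and most isolated points are those of control replicate 2.

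Neighbouring pathways were compared through 26 genes of 4 further lists, of which 25 could be placed. A promoter peak was found in 17 and 20 of the 25 in control and in 13 and 17 in esculetin. The shares of all coding genes were 37.4% and 38.9% in control and 27.9% and 35.0% in esculetin. A promoter peak in all libraries was found for 11 of the 25, against 24.9% of coding genes. Of these 11, 5 had lower percentiles in esculetin without overlap and 3 had higher, and for scaled coverage the counts were 4 and 5. The shares of coding promoters were 29.6% and 14.7% by percentile and 23.1% and 29.6% by scaled coverage. The isoprenoid branches, with 5 of 10 placed genes open in all libraries, had 3 lower and 1 higher by percentile. The proteins of sterol-dependent degradation had 2 of 5 open in all libraries with 1 higher, the electron donors 1 of 3 with 1 lower, and fatty acid synthesis 3 of 7 with 1 lower and 1 higher.

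Nus1, a subunit of the enzyme that makes dolichol from farnesyl diphosphate, had percentiles of 96.1 and 88.5 in control and 32.8 and 76.2 in esculetin. Dhdds, the other subunit of that enzyme, went the opposite way, with 31.5 and 46.3 in control and 49.1 and 57.2 in esculetin, again without overlap. Coq2, which attaches the prenyl tail of ubiquinone, had 57.7 and 71.8 in control and 21.4 and 12.2 in esculetin. Nus1 and Coq2 were thus lower in esculetin without overlap, as was Acly, which makes cytosolic acetyl-CoA, with 96.7 and 93.0 against 83.9 and 91.1, although the scaled coverage of Acly overlapped (0.45 and 0.63 against 0.56 and 0.43). Fnta, the shared subunit of the protein prenyltransferases, was lower with 46.4 and 61.2 against 21.4 and 35.1, and Cyb5a, the electron carrier cytochrome b5, with 90.3 and 87.7 against 78.6 and 76.6. Fasn, the fatty acid synthase, was higher, with 32.9 and 48.8 in control and 62.9 and 69.8 in esculetin. Rnf139, a ubiquitin ligase of sterol-dependent degradation, was also higher, with 59.5 and 72.6 in control and 82.1 and 87.1 in esculetin.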

How the data were processed

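Peak lists of 4 ATAC-seq libraries of RAW264.7 cells were used, grouped by labelled treatment. According to the study's methods, the authors trimmed reads with Trim Galore, aligned them to mm10 with Bowtie2, removed duplicates with Sambamba and called peaks with MACS2, and 1 deposited list was used per library. The caller's options, including any shift of read ends, are not given in the sources used here. Each deposited list holds peak and summit positions, a score, the fold over background as a linear ratio, and the −log10 p-value and −log10 q-value. These depend on depth and were used within a list. The peak names inside the esculetin lists carried E2 and E3 where the samples are labelled E1 and E2, and the labels were followed.

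Chromosomes 1 to 19, X and Y were used. Gene positions came from a RefSeq table (GRCm38.p6), with the strand from RefSeq promoters (17492 coding genes) or, by symbol, from GENCODE vM39 (3781), whose coordinates were not used, so 21273 of 21887 coding genes were placed. Exons and introns were not used here. Promoter peaks had a summit at most 1 kb from the gene start. Summit coverage and local background were solved from the fold, (coverage + 1)/(background + 1), and the Poisson p, for at least 99.95% of peaks of each list, and the procedure was tested on simulated peaks. No count model was possible. Values are mean ± SD (n = 2), and Poisson 95% intervals and counting errors of scaled coverage cover counting error only. Both treat coverage as independent counts, which could not be checked without the caller's options. Groups were called not overlapping when both values of one lay beyond both of the other. All members are named, and of the other pathway genes those with non-overlapping percentiles were named (8, where the rule allowed 6). The members and lists were chosen with earlier results of these data known. The replicate numbers share only a number. Scripts ran in Python 3.11.15 with SciPy 1.17.1, NumPy 2.4.6 and pandas 2.3.3, and plots were drawn in matplotlib 3.10.9.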

Additional observations from a re-analysis of the deposited data

How the results depend on the processing

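The count of 20 genes with a promoter peak in all libraries was 20 within 500 bp or 2 kb of the start, 18 with a −log10 q of at least 5, 15 with the 8581 strongest peaks of each list and 21 with any RefSeq start. The latter, the rank from the top and the count per 1000 peaks were chosen after seeing the data. Of coding genes, 24.9% had a promoter peak in all libraries in the main comparison and 14.1% with the 8581 strongest peaks. This share is not given for the other settings. The difference in genes with a promoter peak, esculetin minus control, was −1.0, and it was −0.5 within 500 bp, −1.5 within 2 kb, −2.0 with the stricter q, −0.5 with any RefSeq start and 2.0 with lists of equal length, where it reversed. Lists of equal length also reversed the difference in median percentile (9.53 in place of −7.11) and in peaks around the genes (1.0 in place of −8.5, and 1.10 per 1000 peaks). With them 7 of 15 genes did not overlap, 2 lower and 5 higher, against 6.74% and 37.3% of coding promoters. In the main comparison the counts were 12, 9 and 3, against 29.6% and 14.7% lower and higher. By rank from the top 2 were lower and 7 higher, against 4.10% and 49.5% of coding promoters. Lists of equal length keep fewer control peaks by construction. With lists of equal length the sign turned in Hmgcs1 (1.57), Sqle (7.01), Stard4 (8.06), Mvk (18.3), Dhcr7 (3.31) and Insig1 (7.78), the last 3 of which overlapped in the main comparison, and when ranked by fold in Hmgcs1 (0.147), Sqle (1.73) and Dhcr7 (1.02). Equal length also moved Srebf2 to 42.3, Ggps1 to 32.6, Mvd to 27.2 and Lss to 17.5. The 500 bp and 2 kb limits and the replicate block returned the same value for every gene. Under the 6 other settings 100 of 115 single-gene values kept their sign, and leaving out 1 library turned Lss, Mvk, Insig1 or Dhcr7.

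When each library was left out in turn, the difference in promoter peaks stayed at −1.0 and the genes open in all libraries at 20. Genes without overlap ranged from 12 to 20, those lower from 9 to 15 and those higher from 3 to 5, with the highest counts without control replicate 2. Of coding promoters, 69.8% to 76.1% did not overlap with 1 library left out, 37.5% to 56.3% lower and 19.8% to 32.3% higher. The median percentile difference ranged from −11.8 (without esculetin replicate 2) to −2.41 (without esculetin replicate 1), and was −2.77 without control replicate 1 and −11.4 without control replicate 2. The difference in peaks around the genes ranged from −15.0 to −2.0. With the replicate number as a block the differences were −1.0, −7.11 and −8.5, as without it, and the deviations of samples with the same number had a correlation of 0.0075 across 5289 promoters. The stricter q was not run for the counts without overlap. With 2 libraries per group and no read counts, depth and list length limit every comparison of weak peaks.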
